A study of Bos taurus with 43 samples.

Results

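Toll-like receptor 2 (TLR2, ENSBTAG00000008008), Toll-like receptor 4 (TLR4, ENSBTAG00000006240) and their co-receptor CD14 (ENSBTAG00000015032) were followed across the uterine luminal samples of 43 cows. They are 3 of the 27570 gene identifiers counted in each library, and were picked by identifier. All cows were multiparous Angus x Brahman animals whose estrus was synchronized with a progesterone (P4) device, a PGF2alpha analogue and GnRH analogue doses. Cells of the uterine lumen were taken with a cytology brush on day 4 after the last GnRH dose, before any embryo was present. Each cow was given 1 in vitro-produced embryo on day 7, and 25 cows were pregnant and 18 were not when checked around day 30. Both outcomes occurred in both rounds of synchronization, with 11 pregnant and 10 nonpregnant cows in block 1 and 14 and 8 in block 2. Every group shared the same hormone protocol and breed cross. The labels set the cows apart by later outcome, by round, and by the blood P4 of day 4 (0.27 to 1.88, unit not stated in the labels). Differences that are not labelled could not be examined.

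TLR2 and TLR4 are membrane receptors of innate immunity that recognise parts of bacteria. TLR4 binds lipopolysaccharide of Gram-negative bacteria together with its partner MD-2, and TLR2 binds bacterial lipopeptides as a pair with TLR1 or TLR6. CD14 has no signalling domain of its own. It is a lipid-anchored or soluble protein that captures lipopolysaccharide and lipopeptides and passes them to these receptors, which then signal through the adaptor MyD88 to the transcription factor NF-κB. Monocytes and macrophages are the classical source of CD14. In cattle, endometrial epithelial and stromal cells carry TLR4 and answer lipopolysaccharide with inflammatory cytokines and chemokines, a defence relevant to uterine infection after calving.

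Libraries held between 11159501 and 23572549 counts (median 15544498), and no library duplicated another. All 3 genes had counts in every library and passed the low-count filter, which kept 15206 genes. The tables hold identifiers without gene symbols. The names of the 3 genes are those under which the identifiers were chosen, and no other identifier could be named, so markers of epithelium, stroma and leukocytes could not be read and the labelled tissue, endometrium, was not checked against them. A brush sample mixes cell types, and in such bulk RNA a change in the number of cells of a type and a change in RNA per cell cannot be told apart. In RefSeq's gene table (assembly ARS-UCD2.0, a different build from the files' ARS-UCD1.2) the span of TLR2 overlaps that of 1 other gene, RNF175, so reads from a shared stretch could have been lost or assigned to either. The spans of TLR4, between ASTN2 and BRINP1, and of CD14, beside TMCO6, overlap no other gene there.

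CD14, the ligand-capturing co-receptor, was the most variable of the 3 between cows. Its level ran from 7.65 to 190.4 CPM (read counts scaled to a common, TMM-adjusted library size) around a median of 37.7 CPM in the 43 cows, a 24.9-fold range. The receptors varied far less. TLR4 ran from 25.8 to 89.9 CPM with a median of 46.2 CPM, a 3.48-fold range. TLR2 ran from 6.60 to 25.1 CPM with a median of 14.5 CPM, a range just over that of TLR4. CPM is not scaled for transcript length, so these levels describe each gene across cows and do not rank the 3 genes against each other.

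Counting error was small beside the spread between cows, as is usual at such counts. The coefficient of variation of CPM was 30.5% for TLR2, 29.1% for TLR4 and 74.1% for CD14, against a counting error of 6.73%, 3.58% and 4.01% at their median counts of 221, 781 and 621. On the log2 scale the SD between cows was 0.46 for TLR2, 0.39 for TLR4 and 0.94 for CD14 (n = 43). Among tested genes whose mean log2 CPM lay within 0.5 of the gene's own, the SD of CD14 was above that of 96.2% of 2780 genes, that of TLR4 above 65.6% of 2710 and that of TLR2 above 49.7% of 2062. CD14 was thus among the more variable genes of its level, while TLR2 sat at the middle of its peers.

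The extreme cows were partly the same for the 3 genes. A nonpregnant cow of block 2 (replicate 3) had the highest CD14 at 190.4 CPM (95% Poisson interval 183.8 to 197.2 CPM) and the highest TLR4 at 89.9 CPM, and was second for TLR2 at 23.4 CPM. Another nonpregnant cow of block 2 (replicate 18), the one with the highest P4 of the study at 1.88, was lowest for all 3, with 6.60 CPM of TLR2, 25.8 CPM of TLR4 and 7.65 CPM of CD14 (95% Poisson interval 6.46 to 8.99 CPM). These intervals cover counting error only. CD14 exceeded 100 CPM in 3 cows: the nonpregnant replicate 3, a pregnant cow of block 1 (replicate 16) at 162.1 CPM and a nonpregnant cow of block 1 (replicate 15) at 127.7 CPM. Those 3 cows span low and high P4, at 0.46, 1.79 and 0.39, and both outcomes.

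**Figure D1:**
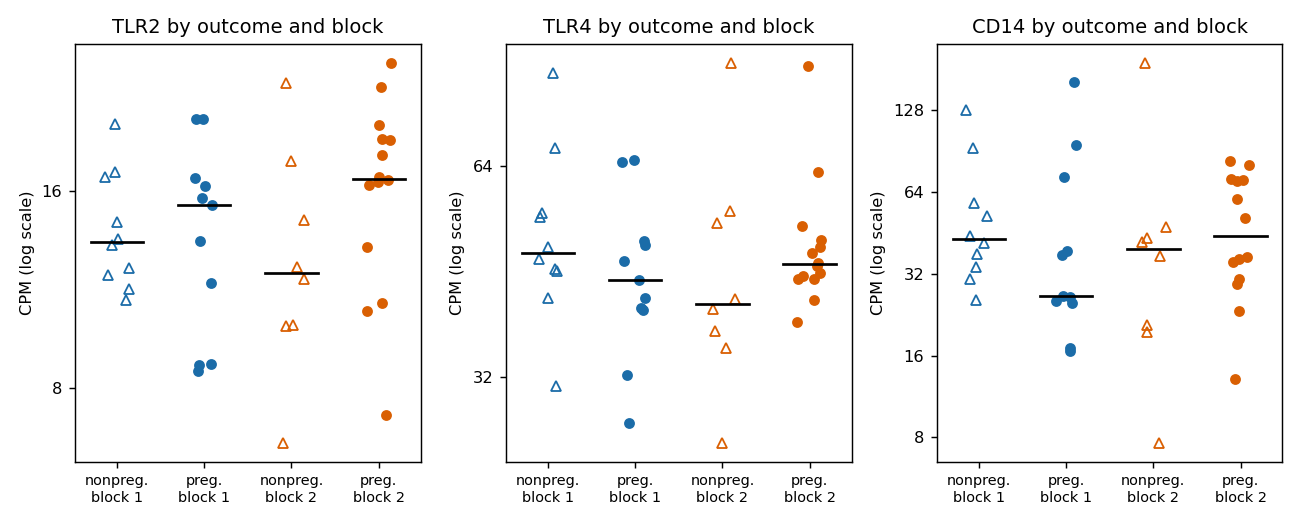
CPM of TLR2, TLR4 and CD14 (log scale) in each of 43 cows, by outcome and block, with filled circles for pregnant and open triangles for nonpregnant cows and a bar at each group's median. The 4 groups overlap in each panel, and CD14 spreads from 7.65 to 190.4 CPM.

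The first comparison asks whether the 3 genes were already set apart on day 4 by the later outcome. None of them differed past the threshold, in a test in which 0 of the 15206 genes (0%) passed (edgeR quasi-likelihood with block in the model, 455 genes at an unadjusted p under 0.05; DESeq2 and limma voom also called 0). TLR2 had 7.27, 16.3 and 25.1 CPM as its lowest, median and highest value in pregnant cows, and 6.60, 12.7 and 23.4 CPM in nonpregnant cows. The ranges nearly coincide. The fitted TLR2 level was 1.12-fold higher in pregnant cows (log2 fold change 0.16 ± 0.14 SE; 95% interval of the fold 0.92 to 1.36; edgeR adjusted p = 1.00).

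TLR4 had 27.6, 46.2 and 89.1 CPM in the same order in pregnant cows, and 25.8, 46.4 and 89.9 CPM in nonpregnant cows. Its medians and its extremes were thus almost equal between outcomes. The fold was 0.960 (log2 fold change -0.06 ± 0.12 SE; 95% interval of the fold 0.81 to 1.14; edgeR adjusted p = 1.00). CD14 had 13.2, 36.9 and 162.1 CPM in pregnant cows, and 7.65, 41.7 and 190.4 CPM in nonpregnant cows, so that the range of the pregnant cows lay inside that of the nonpregnant. Its fold was 0.937 (log2 fold change -0.09 ± 0.29 SE; 95% interval of the fold 0.62 to 1.41; edgeR adjusted p = 1.00). The interval of CD14 is the widest of the 3, and at its ends holds differences that those of TLR2 and TLR4 do not.

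Within rounds, the median of TLR2 was 15.2 CPM (pregnant) and 13.4 CPM (nonpregnant) in block 1, and 16.7 and 11.99 CPM in block 2. The median of CD14 was 26.6 CPM (pregnant) and 42.8 CPM (nonpregnant) in block 1, and 44.1 and 39.6 CPM in block 2. TLR4 medians were 44.0 and 48.1 CPM in block 1, and 46.4 and 40.7 CPM in block 2. The median of TLR2 was higher in the pregnant cows of both rounds, while those of TLR4 and CD14 were lower in block 1 and higher in block 2. The geometric means of CD14 went the same way as its medians. They were 37.5 CPM (pregnant) and 48.0 CPM (nonpregnant) in block 1, and 43.8 and 34.3 CPM in block 2. The fitted difference of CD14, however, was negative in each block alone (-0.14 ± 0.39 in block 1 and -0.05 ± 0.42 in block 2, log2, SE). The nonpregnant cows of block 2 include replicate 3, whose CD14 was 190.4 CPM. For TLR4 the fitted values were -0.20 ± 0.16 and 0.09 ± 0.18. The change of outcome effect from block 1 to block 2 was 0.32 ± 0.28 (log2, SE) for TLR2, 0.29 ± 0.25 for TLR4 and 0.09 ± 0.59 for CD14. No such change passed the threshold (edgeR adjusted p = 0.999 for each; 0% of genes called, 505 at an unadjusted p under 0.05, and 0 by DESeq2 and limma voom). The values in limma voom were 0.60 ± 0.29 for TLR2, 0.36 ± 0.20 for TLR4 and 0.84 ± 0.51 for CD14 (adjusted p = 0.848 for each). The CD14 value was 1.01 ± 0.54 without the 7 libraries described below in which 10 genes took over 8% of counts (edgeR adjusted p = 0.746).

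P4, made by the corpus luteum, prepares the endometrium for pregnancy, and the next comparison relates the receptors to its level in blood. None of the 3 genes followed P4 past the threshold, in a test that called 78 of 15206 genes (0.513%; DESeq2 1.82%, limma voom 0%). In the 14 cows of lowest P4 (0.27 to 0.51) TLR2 had a lowest, median and highest value of 8.66, 14.4 and 23.4 CPM, and in the 14 of highest P4 (0.92 to 1.88) 6.60, 15.8 and 20.6 CPM. For TLR4 these values were 35.3, 49.3 and 89.9 CPM at lowest P4 and 25.8, 46.9 and 67.9 CPM at highest P4. For CD14 they were 20.8, 47.6 and 190.4 CPM at lowest P4 and 7.65, 40.5 and 162.1 CPM at highest P4. The low-P4 and high-P4 cows overlap over most of the range for each gene.

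The slope per doubling of P4 was -0.03 ± 0.09 for TLR2 (log2, SE; edgeR adjusted p = 0.913), -0.07 ± 0.08 for TLR4 (edgeR adjusted p = 0.687) and 0.00 ± 0.18 for CD14 (edgeR adjusted p = 0.997). In fold per doubling, the 95% intervals were 0.86 to 1.12 for TLR2, 0.85 to 1.06 for TLR4 and 0.78 to 1.28 for CD14. P4 tended to be higher in the pregnant cows, and the main fits by P4 and by outcome each leave the other out. With outcome as a term the slopes were -0.07 ± 0.10 for TLR2, -0.07 ± 0.09 for TLR4 and 0.03 ± 0.20 for CD14, and 14 genes were called. With log2 P4 as a term the outcome values were 0.20 ± 0.15, -0.02 ± 0.13 and -0.12 ± 0.33 in the same gene order. For CD14 the fitted slope was 0.23 ± 0.19 in block 1 and -0.60 ± 0.32 in block 2, and 0.32 ± 0.24 in pregnant and -0.32 ± 0.30 in nonpregnant cows.

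The difference of CD14's slope between blocks, a test added after the slopes were seen, was -0.84 ± 0.40 (unadjusted p = 0.0410, edgeR adjusted p = 0.644). It did not pass over all genes, where edgeR called 0% (1155 genes at an unadjusted p under 0.05), limma voom 0 and DESeq2 2. Without the 7 libraries in which 10 genes took over 8% of counts it was -0.11 ± 0.41. The same difference was -0.23 ± 0.20 for TLR2 and -0.27 ± 0.17 for TLR4 (edgeR adjusted p = 0.755 and 0.682). Between outcomes, the P4 slope was higher in pregnant cows by 0.20 ± 0.20 for TLR2, 0.21 ± 0.17 for TLR4 and 0.59 ± 0.38 for CD14. None of these passed (edgeR adjusted p = 0.846, 0.824 and 0.787; 0% of genes called, 874 at an unadjusted p under 0.05, and 0 by DESeq2 and limma voom). In limma voom the values were 0.54 ± 0.23 for TLR2 (unadjusted p = 0.0220), 0.32 ± 0.16 for TLR4 (unadjusted p = 0.0499) and 1.13 ± 0.41 for CD14 (unadjusted p = 0.00780). These were also short of the threshold (limma voom adjusted p = 0.393, 0.440 and 0.381). In that fit 1724 of 15206 genes had an unadjusted p under 0.05. Without the 7 libraries the edgeR values were 0.22 ± 0.22 for TLR2, 0.40 ± 0.15 for TLR4 and 0.67 ± 0.36 for CD14. Their unadjusted p-values were 0.324, 0.0107 and 0.0739 (edgeR adjusted p = 0.704, 0.355 and 0.450). That fit had 1880 of 15206 genes at an unadjusted p under 0.05.

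**Figure D2:**
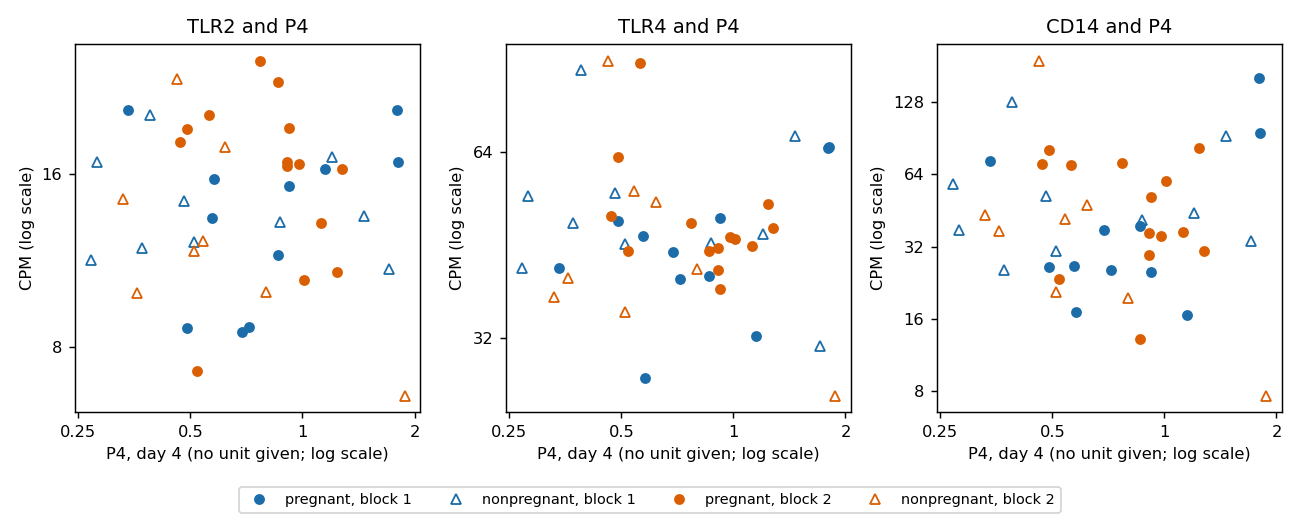
CPM of each gene (log scale) against P4 on day 4 (log scale, unit not stated), with block 1 in blue, block 2 in orange, filled circles for pregnant and open triangles for nonpregnant cows. No panel shows a trend over all 43 cows. In the CD14 panel the cows of highest P4 include values of 162.1 CPM in block 1 and 7.65 CPM in block 2.

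None of the 3 genes differed past the threshold between the rounds of synchronization, in a test that called 63 of 15206 genes (0.414%; DESeq2 1.51%, limma voom 5.48%). The lowest, median and highest TLR2 values were 8.51, 13.5 and 20.6 CPM in block 1 and 6.60, 16.4 and 25.1 CPM in block 2. TLR4 had 27.6, 46.9 and 86.8 CPM in block 1 and 25.8, 45.7 and 89.9 CPM in block 2. CD14 had 16.7, 37.7 and 162.1 CPM in block 1 and 7.65, 39.6 and 190.4 CPM in block 2. For each gene the range of block 2 contained that of block 1 at both ends. The log2 difference, block 2 minus block 1, was 0.09 ± 0.14 for TLR2, 0.02 ± 0.12 for TLR4 and -0.04 ± 0.29 for CD14 (SE; edgeR adjusted p = 0.788, 0.960 and 0.964).

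**Figure D3:**
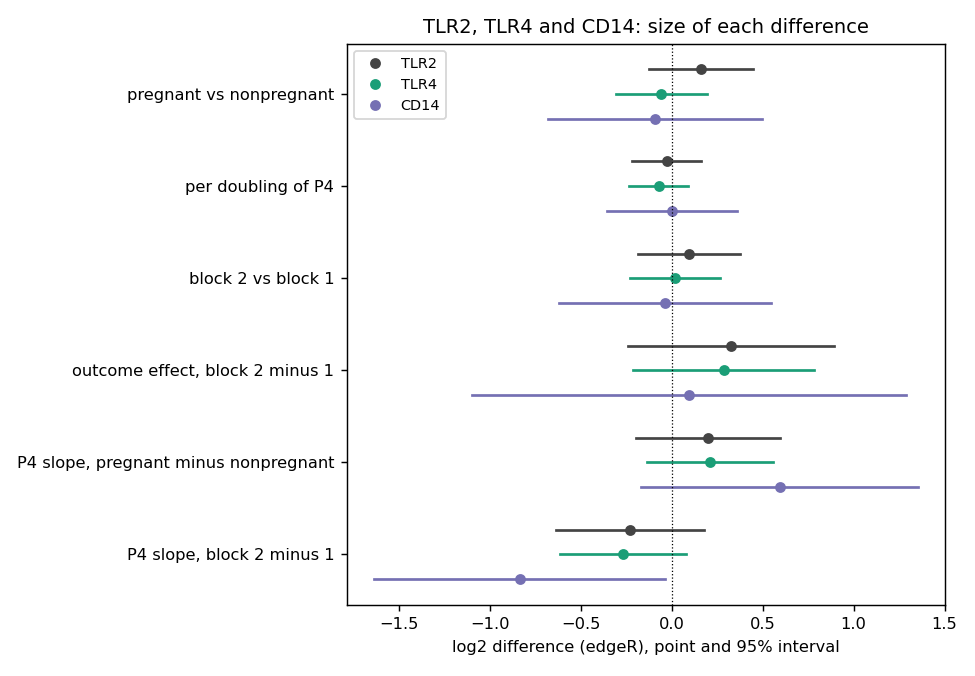
Log2 differences of TLR2, TLR4 and CD14 with their 95% intervals (edgeR, 43 cows) for each comparison, unadjusted for the number of genes. All intervals include 0 except that of the CD14 slope between blocks, which did not pass after adjustment over all genes (adjusted p = 0.644). CD14 has the widest interval in every comparison.

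The receptors and their co-receptor varied together between cows. The strongest of the 3 relations was between TLR4 and CD14, the pair that handles lipopolysaccharide (Pearson r = 0.76, permutation p = 1e-05; Spearman rho = 0.65, permutation p = 2e-05; log2 CPM, 43 cows). TLR2 was related less closely to CD14 (r = 0.50, permutation p = 0.0006; rho = 0.47, permutation p = 0.0017) and to TLR4 (r = 0.47, permutation p = 0.00137; rho = 0.44, permutation p = 0.00387). Adjusted over the 3 pairs, the p-values of r were 3e-05, 0.0009 and 0.00137 in that order, and those of rho 6e-05, 0.00255 and 0.00387. The value 1e-05 is the smallest that the 100000 resamples can give. All are two-sided.

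The relations were weaker without cows at the ends of the range. Without the 2 cows farthest from the median of the first gene named, r was 0.74 for TLR4 with CD14, 0.39 for TLR2 with CD14 and 0.40 for TLR2 with TLR4. Without nonpregnant replicates 3 and 18, a pair chosen after their values were seen, r was 0.68 for TLR4 with CD14 (permutation p = 1e-05, 41 cows). It was 0.35 for TLR2 with CD14 (permutation p = 0.0233) and 0.33 for TLR2 with TLR4 (permutation p = 0.0363). TLR4 and CD14 had r = 0.75 in block 1 and 0.77 in block 2. TLR2 and CD14 had r = 0.48 and 0.53 in the same blocks. TLR2 and TLR4 had r = 0.56 in block 2 and 0.35 in block 1, where the relation did not pass alone (permutation p = 0.121). By outcome, r of TLR4 with CD14 was 0.66 in 25 pregnant and 0.86 in 18 nonpregnant cows, that of TLR2 with CD14 0.29 and 0.83, and that of TLR2 with TLR4 0.21 and 0.82.

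Cows at the extremes were partly shared. Of the 10 cows highest in CD14, 6 were among the 10 highest in TLR4 and 7 among the 10 highest in TLR2, and 5 cows were shared by the highest 10 of TLR2 and TLR4. At the lower end, 5 of the 10 lowest were shared by CD14 and TLR4, and 4 by each pair with TLR2. The balance of the 3 genes changed from cow to cow. The ratio of CD14 to TLR4 within a cow varied 8.43-fold, from 0.348 of its median over cows in nonpregnant replicate 18 to 2.93 times the median in pregnant replicate 16. The ratio of TLR2 to TLR4 varied 3.45-fold. A pregnant cow of block 2 (replicate 25) was an exception to the joint variation of TLR2 and CD14, with rank 3 in TLR2 at 23.04 CPM and rank 42 of 43 in CD14 at 13.2 CPM.

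**Figure D4:**
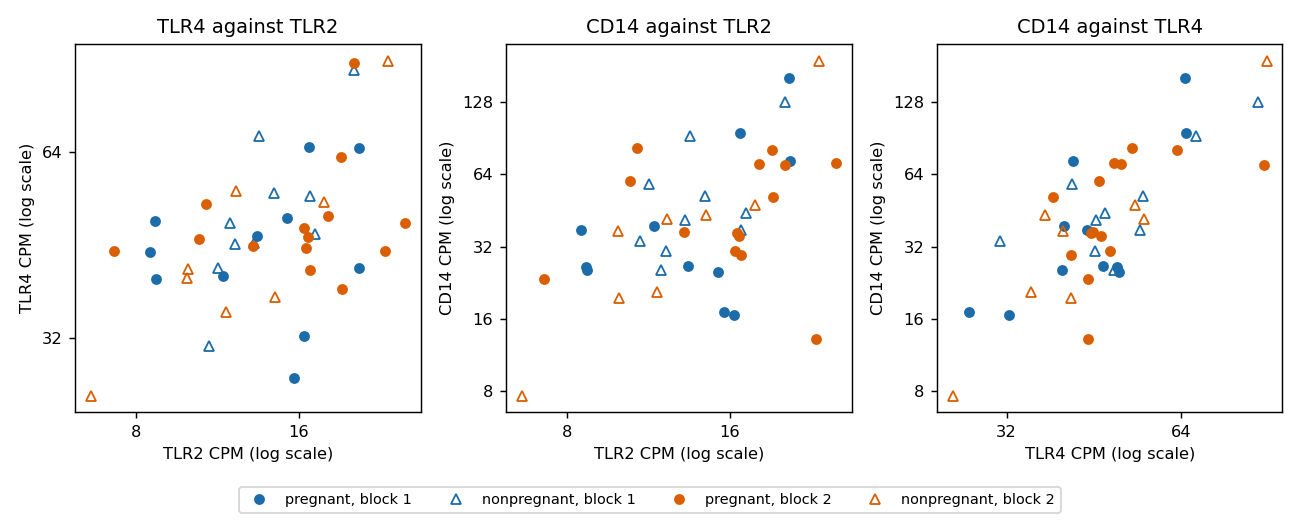
Each pair of genes plotted against each other in CPM (log scales) for 43 cows, with block 1 in blue, block 2 in orange, filled circles for pregnant and open triangles for nonpregnant cows. Points lie closest to a line for CD14 against TLR4 (r = 0.76), and scatter more for both pairs with TLR2 (r = 0.47 and 0.50).

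The levels also moved with a property of the library. The 10 most abundant genes of a library took 3.70% to 11.3% of its counts, and the levels of the 3 genes tended to be higher where it was larger. For TLR4 the relation to that share had the highest r of the 3 genes and the lowest rho (r = 0.66, permutation p = 1e-05, adjusted p = 7e-05; rho = 0.36, permutation p = 0.0178, adjusted p = 0.0624), whose rank correlation did not pass after adjustment. It was r = 0.63 for CD14 (permutation p = 2e-05, adjusted p = 0.000105; rho = 0.50, permutation p = 0.001, adjusted p = 0.00525). For TLR2 it was r = 0.47 (permutation p = 0.00177, adjusted p = 0.00743; rho = 0.52, permutation p = 0.00051, adjusted p = 0.00357). The adjustment is over 21 relations of the 3 genes with 7 measures of the library. Without the 2 libraries farthest from the median share, r was 0.60 for TLR4, 0.55 for CD14 and 0.39 for TLR2, and within block 1 and block 2 it was 0.63 and 0.70, 0.74 and 0.57, and 0.53 and 0.43.

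In 7 libraries, from both outcomes and both blocks, the 10 genes took over 8% of counts. These 7 had a lowest, median and highest CD14 of 35.4, 80.5 and 190.4 CPM, against 7.65, 37.2 and 127.7 CPM in the other 36. Their TLR4 was 40.0, 64.9 and 89.9 CPM, against 25.8, 45.3 and 86.8 CPM, and their TLR2 9.95, 19.1 and 23.4 CPM, against 6.60, 13.9 and 25.1 CPM. The medians of the 7 were higher for each gene, and the ranges overlapped. The highest TLR4 and CD14 of the other 36 both came from nonpregnant replicate 15, with a share of 7.98%, just under the cut. Among the other 36 libraries TLR4 and CD14 kept r = 0.68 (permutation p = 2e-05), TLR2 and CD14 r = 0.40 (permutation p = 0.0153) and TLR2 and TLR4 r = 0.33 (permutation p = 0.0485). Within these 36 libraries the levels still moved with the share of the 10 genes. That r was 0.49 for TLR4 (permutation p = 0.0034), 0.47 for CD14 (permutation p = 0.00368) and 0.45 for TLR2 (permutation p = 0.00599). What the share of these 10 genes contributes to the joint variation was not tested further.

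**Figure D5:**
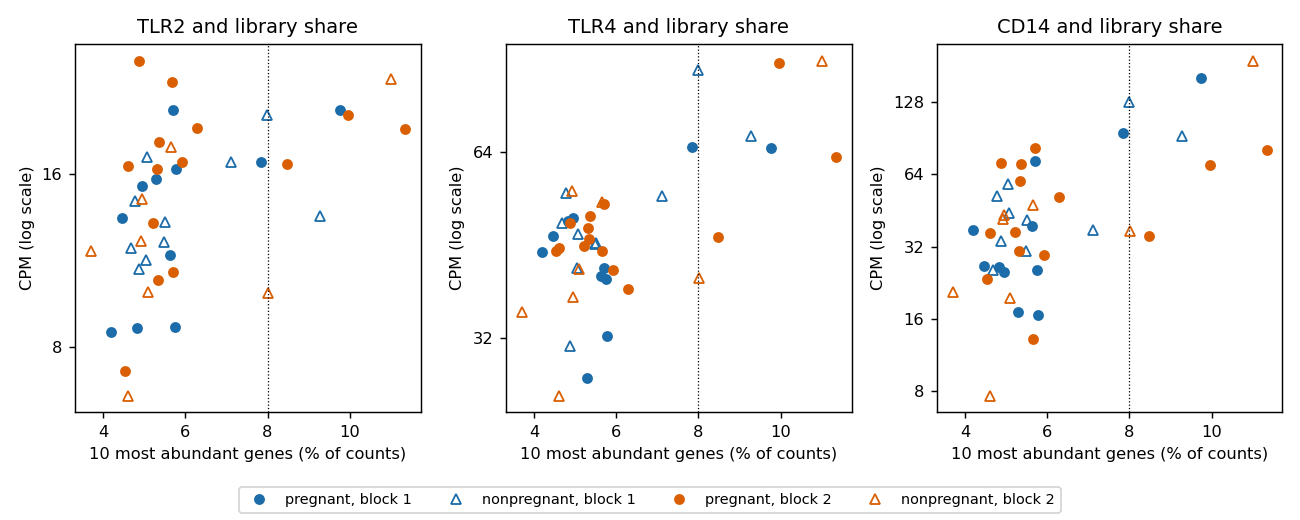
CPM of each gene (log scale) against the percentage of a library's counts taken by its 10 most abundant genes, 43 cows, with block 1 in blue, block 2 in orange, filled circles for pregnant and open triangles for nonpregnant cows and a dotted line at 8%. The 7 libraries right of the line include the highest TLR4 (89.9 CPM) and CD14 (190.4 CPM).

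TLR4 and CD14 followed the main axis of variation between the cows, and TLR2 did not do so past the threshold. The first principal component of log2 CPM held 21.7% of the variance, and its scores correlated with TLR4 (r = 0.80, permutation p = 1e-05, adjusted p = 7e-05; rho = 0.70, permutation p = 1e-05, adjusted p = 0.00021). They correlated with CD14 at r = 0.61 (permutation p = 1e-05, adjusted p = 7e-05; rho = 0.53, permutation p = 0.00032, adjusted p = 0.00336) and with TLR2 at r = 0.25 (permutation p = 0.1102, adjusted p = 0.257; rho = 0.21, permutation p = 0.167, adjusted p = 0.351). Without the 2 cows farthest from the median score r was 0.77 for TLR4 and 0.58 for CD14. Within block 1 and block 2 it was 0.77 and 0.88 for TLR4, 0.54 and 0.72 for CD14, and -0.01 and 0.45 for TLR2. CD14 also ran against component 3, which held 9.08% of the variance (r = -0.42, permutation p = 0.00493, adjusted p = 0.0173; rho = -0.44, permutation p = 0.00387, adjusted p = 0.0163). That r was -0.41 without the 2 farthest cows, -0.45 and -0.42 in block 1 and block 2, and -0.28 without the 7 libraries over 8% (permutation p = 0.0935). Total counts did not follow any of the 3 genes, with r = -0.16 for TLR2, 0.03 for TLR4 and -0.06 for CD14 (permutation p = 0.298, 0.869 and 0.699; adjusted p = 0.466, 0.869 and 0.772).

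The 3 genes differed in how many other genes followed them. Among 14322 genes with a mean log2 CPM of at least 0, the number with r above 0.7 over the 43 cows was 238 for TLR4, 42 for CD14 and 0 for TLR2. The number with r below -0.7 was 327 for TLR4, 3 for CD14 and 0 for TLR2. The gene most like TLR4 was ENSBTAG00000015212 (r = 0.88; 0.91 in block 1 and 0.86 in block 2), followed by ENSBTAG00000024539 (r = 0.84). CD14 was most like ENSBTAG00000006082 (r = 0.79) and ENSBTAG00000013320 (r = 0.78). Among the genes most like CD14, TLR4 ranked 6 and TLR2 ranked 905. Among those most like TLR4, CD14 ranked 56 and TLR2 ranked 2014. Among those most like TLR2, CD14 ranked 121 and TLR4 ranked 215, so many other genes followed each receptor more closely. TLR2 was most like ENSBTAG00000012387 (r = 0.69), but this likeness was 0.27 in block 1 and 0.90 in block 2, and next like ENSBTAG00000006589 (r = 0.69; 0.48 and 0.82). Of the 100 genes most like TLR4, 33% were among the 100 most like CD14, while TLR2 shared 10% of its 100 with CD14 and 6% with TLR4. These correlations across cows are descriptions, and all genes of a cow come from 1 library.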

How the data were processed

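Per the labels' protocols, 1 poly-A RNA library per cow was read on an Illumina NovaSeq instrument. The authors deposited raw read counts per Ensembl gene, as the file headers and whole-number values show. Per the submitters' processing notes, the build was ARS-UCD1.2 and the tools included HISAT2 and HTSeq, with Trim Galore 0.4.4 and FastQC 0.11.7. No source used here gives the strand or multi-read settings of the counting.

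Counts were tested with edgeR 4.0.16 (R 4.3.3) in quasi-likelihood fits across the 15206 genes kept by filterByExpr (minimum count 10), with TMM factors, Benjamini-Hochberg adjustment over all of them and a threshold of 0.05. P4 entered as log2. Outcome and P4 were fitted with block, and block with outcome. SE is the absolute log2 fold change over the square root of F. Log2 CPM with a prior count of 2 served for correlations, tested with 100000 resamples. Scripts were tested on simulated data. Each cow is 1 independent sample. Alternatives included DESeq2 1.42.0 and limma 3.58.1 voom.

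The genes named in the text are the 3 members and, for likeness, at most 2 identifiers per member of highest r. The members and lists were chosen with earlier results of these data known. The 76 pathway genes and 54 cell type markers listed for the design were not used, because 0 of the 37063 RefSeq rows carry an Ensembl identifier. Sequences were likewise not used here.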

Additional observations from a re-analysis of the deposited data

Results flagged for a closer look

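On the CPM scale nonpregnant replicate 3 stood apart from the other 7 nonpregnant cows of block 2. Its TLR4 was 89.9 CPM, with the nearest of the others at 55.3 CPM, and its CD14 was 190.4 CPM, with the nearest at 47.5 CPM. The gap took 0.540 of the group's range for TLR4 and 0.782 for CD14, where 0.526 is the limit for 8 samples. On the log2 CPM scale, added after the data were seen, the gap took 0.390 and 0.433 of the range, both under that limit. TLR2 showed no such gap. Each of the 3 genes was examined in the nonpregnant cows of block 1 (10 cows) and block 2 (8 cows), 6 groups in all. The pregnant cows were not examined in this way. Among them, TLR4 of replicate 4 (block 2) was 89.1 CPM, with the nearest of its block at 62.9 CPM. CD14 of pregnant replicate 16 (block 1) was 162.1 CPM, with the nearest at 95.1 CPM. Chance flags about 1 in 20 groups if values are normally distributed. CPM of CD14 was skewed, with a mean of 50.8 and a median of 37.7 CPM in the 43 cows. The 6 groups are not independent, because the 3 genes were read in the same cows and vary together. Both flags come from 1 library, that of nonpregnant replicate 3. The 10 most abundant genes took 11.01% of the counts of this library, and the part of that in its levels was not tested.

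TLR2 was less closely tied to TLR4 in pregnant than in nonpregnant cows (r = 0.21, n = 25, and 0.82, n = 18). The difference in Fisher's z, pregnant minus nonpregnant, was -0.95 (two-sided permutation of outcome within blocks, p = 0.00287, adjusted p = 0.00861 over the 3 pairs). The tie of TLR2 to CD14 differed in the same direction (r = 0.29 and 0.83; z difference -0.90, permutation p = 0.0257, adjusted p = 0.0385). That of TLR4 to CD14 did not pass (z difference -0.52, permutation p = 0.148). These tests were chosen after the correlations had been seen on the same cows, and no independent cows were at hand to repeat them. Without nonpregnant replicates 3 and 18, the highest and lowest cows for TLR4 and CD14, the z difference was -0.58 for TLR2 with TLR4 (permutation p = 0.0335) and -0.41 for TLR2 with CD14 (permutation p = 0.309). Without the 7 libraries over 8% these were -1.14 (permutation p = 0.00063) and -1.09 (permutation p = 0.0204). The cows of block 1 alone gave -0.84 for TLR2 with TLR4 (exact permutation p = 0.108), and those of block 2 gave -1.11 (exact permutation p = 0.0383). For TLR2 with CD14 the block 1 value was -0.12 (exact permutation p = 0.811), and that of block 2 was -1.53 (exact permutation p = 0.0541).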

How the results depend on the processing

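Of 549 fits of the 3 genes under alternatives, 0 passed the threshold (lowest adjusted p = 0.137, for the CD14 slope between blocks in limma voom), and 67 changed sign. Each of the main values that changed sign was below 2 SE in size, the largest being the TLR4 slope difference between blocks (-0.27 ± 0.17) and TLR2 by outcome (0.16 ± 0.14). The detected-gene and 10-gene terms, the fits without libraries over 8% and the slope between blocks were chosen after the data were seen. By outcome the sign changed for TLR2 in limma voom (-0.023), for TLR4 in block 2 alone (0.087) and for CD14 with the share of the 10 genes as a term (0.0061) or without libraries over 8% (0.041). By P4 it changed for TLR2 in limma voom (0.016), block 1 (0.027), pregnant cows (0.043) and without the 2 cows of highest P4 (0.0073), and for TLR4 in block 1 (0.013) and pregnant cows (0.057). The CD14 slope turned negative with DESeq2 (-0.0051), RLE factors (-0.0057), detected genes (-9.96e-05) or the 10-gene share as a term (-0.070), without libraries over 8% (-0.12), in block 2 (-0.60), in nonpregnant cows (-0.32), per rank of P4 (-0.0039) and under permutation (-0.11). By block it changed for TLR2 in nonpregnant cows (-0.093), for CD14 in pregnant cows (0.0023) and for TLR4 in limma voom (-0.079), with detected genes (-0.029) or the 10-gene share (-0.036) as a term, without libraries over 8% (-0.078) and in nonpregnant cows (-0.15). The TLR4 slope difference between blocks was 0.0095 without libraries over 8%. The cause was not tested.

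Without 1 cow at a time, outcome values ran from 0.11 to 0.23 for TLR2, -0.11 to 0.026 for TLR4 and -0.28 to 0.23 for CD14, with both upper ends of TLR4 and CD14 without nonpregnant replicate 3. P4 slopes ran from -0.075 to 0.023, -0.11 to -0.030 and -0.17 to 0.093, and block differences from 0.035 to 0.14, -0.056 to 0.065 and -0.32 to 0.17, in the same gene order. The lowest adjusted p among these 387 fits was 0.444.

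TLR2 with TLR4 had r = 0.35 in block 1 alone. Weak relations to library measures changed sign: TLR4 with total counts without the 2 farthest cows (-0.029) and in block 1 (-0.021), CD14 with total counts without libraries over 8% (0.024), TLR4 and CD14 with detected genes in block 2 (-0.077 and -0.016), TLR2 with components 1 and 2 in block 1 (-0.012 and -0.031), and CD14 with component 4 in block 1 (-0.053). TLR4 also changed sign with component 2 without the 2 farthest (0.031), in block 1 (0.27) or without libraries over 8% (0.094), and with component 3 in block 1 (0.0057) or without libraries over 8% (0.060).

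The background of 78 genes called by P4 ranged from 0 (limma voom and each block or pregnant cows alone) to 276 (DESeq2), or 23 to 488 without 1 cow, and that of 63 by block from 0 (nonpregnant cows) to 834 (limma voom), or 11 to 354 without 1 cow. For outcome it was 0 except for 5 with no low-count filter. No paired analysis was possible because a cow gave 1 sample and belongs to 1 outcome and 1 block. Terms and correlations built on marker lists and counts over pathway lists were not run, for want of symbols.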
